A study of Mus musculus with 24 samples.

Results

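Immediate early genes and heat shock genes were followed in tissue-resident macrophages (TRMs) sorted from tissue (ex vivo) and in TRM-like cells (TRM-LCs) kept in culture (in vitro). The set held 37 of the 45706 genes in the count table. It was chosen by gene name, with earlier results of these data known. It consisted of 8 AP-1 and related bZIP factors, 10 Egr, Nr4a, Klf and Myc factors, 9 other immediate early genes, 4 NF-kB and cytokine feedback genes and 6 heat shock genes. All 37 are annotated as protein-coding. Depending on the comparison, between 35 and 37 of them passed the filter on low counts.

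RNA sequencing covered 8 groups of 3 libraries each, all from female C57BL/6J mice that the labels give as 8 to 12 weeks old. Microglia (MG) came from brain, Kupffer cells (KCs) from liver, peritoneal macrophages (PMs) from the peritoneum and alveolar macrophages (AMs) from lung. Each population was taken as FACS-sorted cells and again after 14 days in PEI-coated flasks, the cultures being named MG-LCs, KC-LCs, PM-LCs and AM-LCs. Liver and lung were digested with collagenase and DNase for 30 min at 37°C, whereas the brain was homogenized without enzyme and peritoneal cells were washed out with buffer. MG-LCs received M-CSF and IL-34, and KC- and PM-LCs received M-CSF, all at high glucose and 3% oxygen. AM-LCs received GM-CSF without glucose at atmospheric oxygen, so the effect of these conditions cannot be told apart from that of the tissue. A culture flask held cells of 3 mice, or of 1 mouse for liver. The labels name no treatment or genetic change of the mice and do not say which libraries came from separate mice, so the p-values measure the spread between these libraries, which may be technical.

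The libraries held 29569486 to 47105111 counted reads. A gene without a read stood at no more than 0.0661 to 0.115 CPM across libraries (3 reads, for counting error only), where CPM are counts normalized to library size. In the sorted cells, the 8 markers of each population had their highest sum in that population, such as 31135 to 34868 CPM of MG markers in MG and 23397 to 26400.3 CPM of AM markers in AMs. In culture these sums were lower, with 381 to 2652 CPM of MG markers in MG-LCs, 56.8 to 209 CPM of KC markers in KC-LCs and 127 to 208 CPM of PM markers in PM-LCs, and stood at 2557 to 9686 CPM of AM markers in AM-LCs. KC markers were higher in MG-LCs (330 to 2321 CPM) and PM-LCs (820 to 2074 CPM) than in KC-LCs, without overlap. MG markers in MG-LCs overlapped those in KC-LCs (421 to 614 CPM). Some libraries stood apart from the others of their group. MG-LC replicate 1 carried 30934 CPM of fibroblast and mesothelium markers (7 of 8 with reads in MG-LCs, Upk3b at 0), against 7.39 and 1012 CPM in the other MG-LC libraries. KC replicate 1 carried 241 CPM of T and NK cell markers (8 of 8 with reads in KCs), against 32.2 and 24.1 CPM in the other KC libraries, and was the highest KC library for 67.6% of the members and 43.1% of all genes. AM-LC replicate 2 carried 9686 CPM of AM markers, against 2557 and 2882 CPM. Of the same fibroblast and mesothelium markers, PM-LC replicate 2 carried 2208 CPM (22.9 and 365 CPM in the other PM-LC libraries) and AM-LC replicate 3 carried 1667 CPM (17 and 181 CPM). B cell markers summed to 434 CPM in PM-LC replicate 1 (7.86 and 8.4 CPM in the others) and to 185 CPM in AM replicate 3 (5.35 and 3.94 CPM). Replicate 3 of KC- and PM-LCs stood apart in the genes described here. Lung epithelial markers summed to 287 to 346 CPM in sorted AMs (8 of 8 with reads), against at most 13.5 CPM in the other sorted groups. Neutrophil markers summed to 98 to 118 CPM in sorted AMs (5 of 8 with reads, Ly6g, Retnlg and Elane at 0) and to 2.99 to 142 CPM in KCs. The part of these markers in the results was not tested. In bulk RNA, fewer cells that express a gene and less RNA per cell cannot be told apart.

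Immediate early genes are transcribed within minutes of a stimulus by factors that are already present in the cell, without new protein synthesis. Fos and Jun proteins pair to form AP-1, and Egr, Nr4a and Klf factors carry the response on to later genes. Other members end it: Dusp1, Dusp2 and Dusp5 dephosphorylate MAP kinases, Zfp36 destabilizes cytokine mRNAs, and Nfkbia and Tnfaip3 restrain NF-kB. Heat shock genes are switched on by HSF1 when unfolded proteins accumulate, and their products refold proteins. Warm enzymatic digestion and cell sorting are known to induce both kinds of genes in several cell types, which is why they are often read as marks of cell isolation.

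The sequences before 4 start sites are shown, as examples of the heat shock genes, the phosphatases and the NF-kB feedback genes described below. Hspa1a and Hspa1b are neighbouring copies on chromosome 17. The bases before their start sites lie at chr17:34972157-34972406 and chr17:34959239-34959488 (GRCm38, minus strand, RefSeq), with a heat shock element of 2 units in capitals (TTCNNGAA or GAANNTTC, searched on both strands, and contained in the element of 3 units, TTCNNGAANNTTC).
Hspa1a: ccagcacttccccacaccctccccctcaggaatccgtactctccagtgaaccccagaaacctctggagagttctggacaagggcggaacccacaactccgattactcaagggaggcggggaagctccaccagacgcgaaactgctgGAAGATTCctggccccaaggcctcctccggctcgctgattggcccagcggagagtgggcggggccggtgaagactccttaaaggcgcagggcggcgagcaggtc
Hspa1b: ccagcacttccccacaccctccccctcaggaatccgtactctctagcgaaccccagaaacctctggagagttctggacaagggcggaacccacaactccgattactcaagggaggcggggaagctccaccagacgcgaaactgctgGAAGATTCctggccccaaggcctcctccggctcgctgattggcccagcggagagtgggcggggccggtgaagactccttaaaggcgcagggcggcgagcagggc
In the windows of 300 bases from RefSeq, 296 bases were the same (98.7%). The differences from Hspa1a to Hspa1b were C44T, T47C, T249G and C276T, counted from 1 at the window's 5′ end, and the capitals were identical. Dusp5 lies on chromosome 19, and the bases shown are at chr19:53528895-53529108 (plus strand), with a pair of adjoining CArG boxes, the site of the serum response factor, in capitals.
Dusp5: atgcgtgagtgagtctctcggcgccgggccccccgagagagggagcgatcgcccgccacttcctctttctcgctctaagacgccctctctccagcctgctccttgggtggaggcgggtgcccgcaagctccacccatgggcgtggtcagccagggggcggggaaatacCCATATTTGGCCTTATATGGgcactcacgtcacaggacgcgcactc
Nfkbia lies on chromosome 12, and the bases shown are at chr12:55492648-55492897 (minus strand), with a kappa-B site in capitals.
Nfkbia: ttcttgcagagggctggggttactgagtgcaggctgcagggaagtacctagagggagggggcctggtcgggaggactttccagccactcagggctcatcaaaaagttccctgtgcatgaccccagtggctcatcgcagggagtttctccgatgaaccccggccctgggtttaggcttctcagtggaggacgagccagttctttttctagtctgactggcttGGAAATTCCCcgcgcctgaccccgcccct
A promoter window of 300 bases was found for 30 members, and these were searched on both strands. The heat shock element of 2 units was in 5 of them (Fosl2, Jun, Hspa1a, Hspa1b and Hsph1) and in 15.1% of all 27025 promoters. The CArG box was in 2 (Dusp5 and Zfp36) and in 1.57% of all promoters, and the kappa-B site in 7 (Fos, Fosb, Fosl2, Nr4a1, Ier3, Nfkbia and Tnfaip3) and in 4.35%. The cyclic AMP response element TGACGTCA was in 2 (Dusp1 and Btg2) and in 1.88%. The RefSeq windows of Nr4a1, Atf3 and Dusp1 lie 12577, 34706 and 53656 bases from the GENCODE start of the gene. A match describes the letters only.

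Sorted and cultured cells were compared in each population, which asks how far these genes differ between the states. Members tended to be lower in sorted MG, KCs and PMs than in their cultures, and higher in sorted AMs than in AM-LCs. A member was called at an adjusted p under 0.05 (edgeR's quasi-likelihood test, adjusted over all genes tested). In MG, 4 of the 36 members tested were higher ex vivo and 20 lower, where 21.2% and 25.2% of all 14416 genes tested were called higher and lower. In KCs, 3 of 37 members were higher and 13 lower, against 19.4% and 14.4% of all genes. In PMs, 2 of 35 members were higher and 19 lower, against 12.1% and 16.8% of all genes. In AMs, 15 of 36 members were higher and 4 lower, against 22.9% and 25.9% of all genes. The members tested had a median log2 difference of -1.59 (MG), -0.98 (KCs), -2.04 (PMs) and 0.77 (AMs), whereas the median of all genes lay between -0.04 and 0.01.

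**Figure D1:**
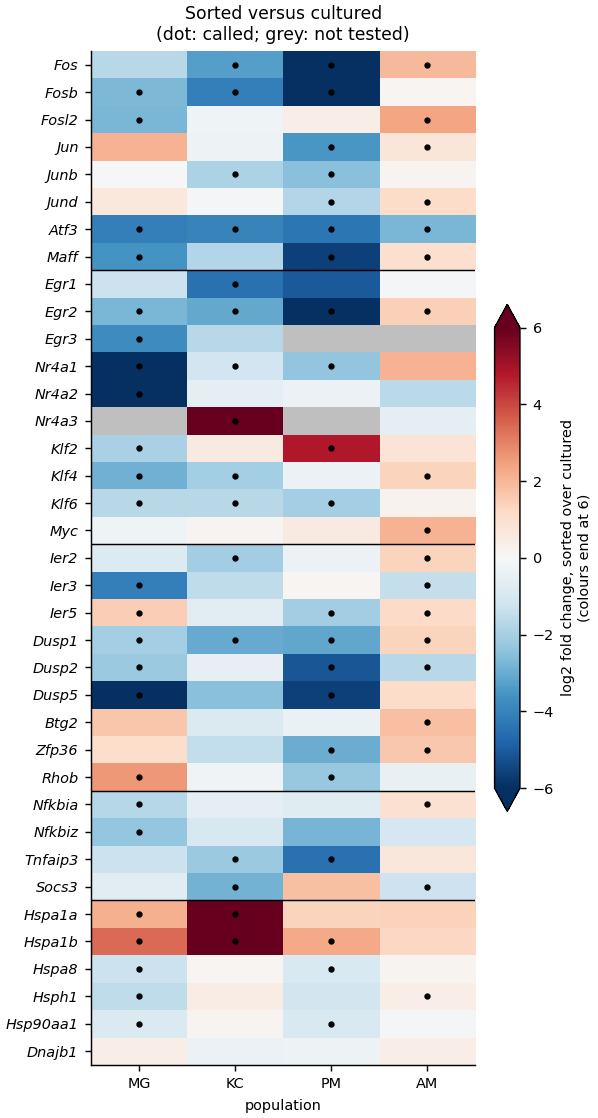
Log2 fold change of sorted over cultured cells for each of the 37 members (lines) in each population (columns), with members grouped by role and a dot where the member was called. Blue fields (lower ex vivo) prevail in MG, KC and PM with 20, 13 and 19 calls, and red fields (higher ex vivo) in AM with 15 calls.

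The calls of single members differed between the populations. Of the 35 members tested in all 4 comparisons, 6 were lower in sorted MG, KCs and PMs alike (Fosb, Atf3, Egr2, Nr4a1, Klf6 and Dusp1), as were 5.54% of all 11777 genes so tested. A further pattern, lower in at least 1 of these populations and higher in AMs, was found in 13 members and in 4.98% of all genes. These patterns rest in part on calls that depend on 1 library: of the 6 members, Atf3 kept all 3 calls with each library left out, and of the 13, Fosl2, Jund, Maff, Egr2, Ier2 and Ier5 kept the call in AMs and at least 1 of the others. The call in AMs was lost in 5 of 6 such fits for Hsph1 and in 4 of 6 for Jun. Atf3, a stress-induced bZIP factor, was the member that was lower ex vivo in all 4 populations. Dnajb1, the Hsp40 cochaperone, lay between 41.7 and 111 CPM in all 24 libraries. It passed the threshold in none of the 4 comparisons by edgeR, DESeq2 or limma-voom. Its log2 values were 0.39 in MG and 0.41 in AMs (edgeR, adjusted p = 0.123 and 0.0829). In KCs and PMs its mean was lower ex vivo, at 66.9 against 87.9 CPM and 52.2 against 64.8 CPM. With 1 library left out in turn, the calls of 10 of 20 members lower in MG, 7 of 13 in KCs and 14 of 19 in PMs, and of 9 of 15 members higher in AMs, were made in every fit. With all 24 libraries in 1 model, 8 members were higher and 1 was lower in AMs, where 12.7% and 16.1% of all genes were called.

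The sorted populations were then compared with each other, since the question was whether the genes follow the isolation of the cells or the population. Among the sorted groups, 14 of the 37 members had their highest mean in AMs (37.8%, against 23.5% of all 17408 genes), 10 in KCs (27.0% against 25.0%), 10 in MG (27.0% against 31.5%) and 3 in PMs (8.11% against 19.9%). The lowest mean was in PMs for 17 members (45.9%, against 20.9% of all genes). Against the mean of sorted MG, KCs and PMs, 18 of 36 members tested were higher in AMs and 9 lower, where 24.7% and 21.9% of all 15732 genes tested were called higher and lower. AMs and KCs both came from digested tissue, and 15 members were higher in AMs than in KCs and 7 lower, against 19.3% and 24.2% of all genes. KCs and AMs (digested) were compared with MG and PMs (not digested), in which tissue and isolation cannot be told apart. Here 18 members were higher in the digested pair and 6 lower, against 23.0% and 18.5% of all genes. The members that separated these groups were not the same in each role, as follows.

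Among the AP-1 factors, Fos was high in sorted AMs and low in sorted PMs. Fos stood at 1089.8, 888 and 933 CPM in AMs, 648, 334 and 508 CPM in MG, 222, 99.4 and 67.9 CPM in KCs and 19.8, 14 and 14.2 CPM in PMs. The 4 sorted groups did not overlap. The log2 difference of AMs was 3.27 ± 0.28 (SE; adjusted p = 2.37e-06) from the mean of the other sorted cells and 2.88 ± 0.41 (SE; adjusted p = 0.000171) from KCs. Fosl2, another Fos family member, had the order AM, PM, KC and MG without overlap, with 97.3, 109.9 and 121 CPM in AMs and 10.2, 10.5 and 10.5 CPM in MG. It was higher in AMs than in the other sorted cells by log2 2.28 ± 0.11 (SE; adjusted p = 3e-08). Maff, a small Maf protein without an activation domain, stood at 46.2, 42.6 and 56.9 CPM in AMs and between 0.134 and 5.11 CPM in the other 9 sorted libraries. The difference between AMs and the mean of the others was 5.77 ± 0.36 (SE; adjusted p = 1.75e-07), or 54.7-fold. Fosb stood at 0, 0 and 0.271 CPM in PMs and between 0.998 and 23.4 CPM elsewhere ex vivo.

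The Jun family had another order. Jun stood at 2439, 2099 and 2603 CPM in MG, 226, 229 and 148 CPM in KCs, 181, 128 and 206 CPM in AMs and 31.9, 32.9 and 36.0 CPM in PMs. MG lay above and PMs below all other sorted libraries, while KCs and AMs overlapped (log2 difference -0.24 ± 0.21 SE, adjusted p = 0.362). Junb and Jund were also highest in MG and lowest in PMs by their means, with Junb at 1192, 979.6 and 1102 CPM in MG and 299.8, 260.4 and 213 CPM in PMs. Per kilobase of exons, Jun was at 746 CPM in MG against 211 for Fos, whereas in AMs Fos was at 412 and Jun at 53.9. Only 51.7% of the stretches of 50 bases in Jund transcripts occur in no other gene's transcripts, so its counts are less certain. In culture, Fos ranged from 80.6 to 3234 CPM and Jun from 82.5 to 1111 CPM. Sorted cells were lower than their cultures in Fos in KCs (log2 -3.30 ± 0.67 SE, adjusted p = 0.0089) and in PMs (log2 -6.30 ± 0.57 SE, adjusted p = 0.000333) and higher in AMs (log2 1.96 ± 0.50 SE, adjusted p = 0.0148). The call in AMs was lost without AM replicate 1 (adjusted p = 0.0505). Jun was lower in sorted PMs (log2 -3.47 ± 0.51 SE, adjusted p = 0.00268), and in MG, where the sorted libraries lay above all MG-LC libraries, the difference was 2.09 ± 0.74 (SE; adjusted p = 0.0578) and became a call without MG-LC replicate 3. With all libraries, limma-voom (log2 2.51, adjusted p = 0.0441) and DESeq2 (log2 2.11, adjusted p = 0.00425) called Jun higher in sorted MG.

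Atf3 was at 26.1, 25.2 and 28.0 CPM in sorted MG and 62.6, 48.8 and 50.5 CPM in sorted AMs, and between 170 and 1168 CPM in the 12 cultured libraries. No sorted library reached the lowest cultured one. Between sorted and cultured cells it differed with a log2 difference of -4.09 ± 0.52 (SE; adjusted p = 0.00271) for MG and -3.99 ± 0.61 (SE; adjusted p = 0.00336) for KCs. It differed with a log2 difference of -4.35 ± 0.32 (SE; adjusted p = 0.000153) for PMs and -2.72 ± 0.19 (SE; adjusted p = 0.000116) for AMs. These calls were made in every fit with 1 library left out.

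**Figure D2:**
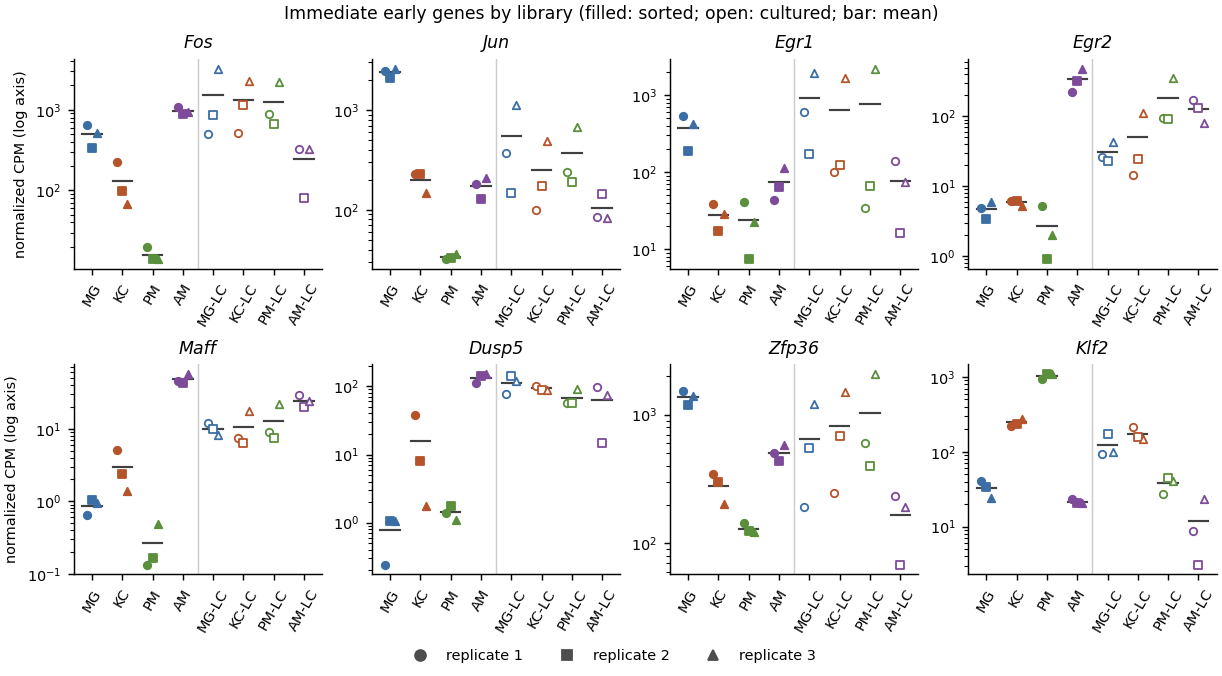
Normalized CPM (log axis) of 8 immediate early genes in each of the 24 libraries, with filled points for sorted and open points for cultured cells, a marker shape for each replicate and a bar for the mean of 3. AMs lead the sorted groups in Fos, Egr2, Maff and Dusp5, MG lead in Jun, Egr1 and Zfp36, and PMs lead in Klf2.

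Among the zinc finger and nuclear receptor factors, Egr2 separated AMs from all other sorted cells. Egr2 stood at 223, 316 and 482 CPM in AMs, 6.14, 6.15 and 5.28 CPM in KCs, 4.80, 3.38 and 5.85 CPM in MG and 5.25, 0.9 and 1.98 CPM in PMs. AMs were higher than the mean of the others by log2 6.35 ± 0.36 (SE; adjusted p = 7.91e-08), or 81.4-fold, and higher than KCs by log2 5.84 ± 0.56 (SE; adjusted p = 8.77e-06). In AM-LCs, Egr2 stood at 171, 129.6 and 80.7 CPM, with sorted AMs higher by log2 1.42 ± 0.33 (SE; adjusted p = 0.0105). Egr1, its relative and a common marker of an early response, did not follow Egr2. Egr1 was highest in sorted MG at 533, 188 and 419 CPM, and stood at 43.5, 64.3 and 113 CPM in AMs, 38.2, 17.1 and 29.0 CPM in KCs and 41.6, 7.45 and 22.9 CPM in PMs. AMs did not differ from the mean of the others in Egr1 beyond the spread (log2 difference 0.21, 95% interval -0.80 to 1.23, adjusted p = 0.748). Egr3 had at most 31 counts in any sorted library and was not tested among sorted cells.

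Nr4a1 (Nur77), an orphan nuclear receptor, was higher in digested than in undigested populations. It stood at 98.7, 57.6 and 51.6 CPM in KCs and 56.7, 38.3 and 60.9 CPM in AMs, but 22.7, 8.78 and 11.8 CPM in PMs and 2.78, 1.22 and 3.24 CPM in MG. The pairs did not overlap, and the log2 difference was 3.36 ± 0.32 (SE; adjusted p = 6.73e-06). In MG-LCs Nr4a1 was at 218, 203 and 142 CPM, so that sorted MG were lower with a log2 difference of -6.33 ± 0.48 (SE; adjusted p = 0.000804). Within KCs, Nr4a3 stood out in 1 library: replicate 1 had 17.4 CPM and the other KC libraries 1.92 and 0.599 CPM. AMs had 0.598 to 1.09 CPM, MG 0.0270 to 0.110 CPM and PMs 0 CPM in all 3 libraries. Nr4a3 was called higher in the digested than in the undigested pair with each library left out, at few counts in AMs and MG. Its call as higher in sorted KCs than in KC-LCs (log2 5.99 ± 1.73 SE, adjusted p = 0.0313) was lost without KC replicate 1, KC-LC replicate 2 or KC-LC replicate 3. KC replicate 1 had the most T and NK cell markers, and their part in the result was not tested. Nr4a2 stood at 11.7, 0.363 and 0 CPM in KCs, and its log2 difference between AMs and KCs was -1.11 ± 1.35 (SE; adjusted p = 0.533) with, and 3.34 (adjusted p = 0.0172) without, KC replicate 1.

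The Klf factors were spread over the populations. Klf2, which restrains inflammatory genes in myeloid cells, stood at 946, 1088 and 1095 CPM in PMs, 224, 238 and 277 CPM in KCs, 40.3, 33.9 and 24.2 CPM in MG and 23.1, 20.4 and 20.3 CPM in AMs. No groups overlapped, and AMs were lower than the mean of the others with a log2 difference of -3.25 ± 0.18 (SE; adjusted p = 6.95e-08). Klf2 was higher in sorted PMs than in PM-LCs by log2 4.78 ± 0.26 (SE; adjusted p = 4.91e-05), the largest rise ex vivo of any member in PMs, and lower in sorted MG than in MG-LCs with a log2 difference of -1.94 ± 0.32 (SE; adjusted p = 0.00541). AM-LCs were likewise lower than the other cultures (log2 -2.95 ± 0.56 SE, adjusted p = 0.00785). Klf4 was highest in AMs, with 87.5, 89.4 and 107 CPM against 4.11 to 33.2 CPM in the other sorted libraries, and higher there by log2 3.21 ± 0.31 (SE; adjusted p = 6.86e-06). Klf6 and Myc were also higher in AMs than in the mean of the others, by log2 0.94 ± 0.15 (SE; adjusted p = 0.00043) and 1.02 ± 0.19 (SE; adjusted p = 0.00093). Myc, the growth factor-induced regulator of biosynthesis, was higher in sorted AMs than in AM-LCs by log2 2.09 ± 0.25 (SE; adjusted p = 0.000737) and was not called between the states in the other populations, where log2 values lay at -0.26 in MG, 0.14 in KCs and 0.53 in PMs. Without PM-LC replicate 3, Myc was called higher in sorted PMs (log2 1.32, adjusted p = 0.00411).

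Among the other immediate early genes, Dusp5, which acts on ERK in the nucleus, was highest in AMs ex vivo. Dusp5 stood at 112, 140.5 and 152 CPM in AMs, 37.7, 7.94 and 1.77 CPM in KCs, 1.37, 1.77 and 1.11 CPM in PMs and 0.242, 1.05 and 1.07 CPM in MG. The log2 difference of AMs from the mean of the others was 5.70 ± 0.60 (SE; adjusted p = 1.32e-05). All cultures expressed it, between 14.5 and 143 CPM, so that it was lower ex vivo in MG with a log2 difference of -7.22 ± 0.66 (SE; adjusted p = 0.00112) and in PMs with a log2 difference of -5.58 ± 0.34 (SE; adjusted p = 7.76e-05). In KCs edgeR did not call it (log2 -2.52 ± 0.91 SE, adjusted p = 0.0665), but it was lower there by limma-voom (log2 -3.46, adjusted p = 0.00978), by DESeq2 (log2 -2.46, adjusted p = 0.00866) and by edgeR without KC replicate 1 (log2 -4.25, adjusted p = 0.00375). Its counts carry a limit, since 79.5% of its stretches of 50 bases are found in no other gene. Dusp1 (MKP-1) was also highest in AMs, at 942, 709 and 856 CPM against 147 to 452 CPM in the other sorted libraries (log2 1.37 ± 0.24 SE, adjusted p = 0.000636). Dusp2 was highest in KCs, with 73.7, 27.0 and 14 CPM in KCs and 1.17, 1.33 and 2.71 CPM in AMs, and was lower in AMs than in KCs with a log2 difference of -4.48 ± 0.61 (SE; adjusted p = 0.000134). KC replicate 1 was the highest library for both Dusp2 and Dusp5 among KCs.

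Sorted MG led in 4 of these 9 genes. Zfp36 stood at 1521, 1183 and 1394 CPM in MG against 123 to 584 CPM in the other sorted libraries, and Btg2, an antiproliferative gene, at 1144, 849 and 813 CPM against 109 to 376 CPM. Rhob, a small GTPase of endosomes, was at 716, 606 and 592 CPM in MG and 15.5, 24.7 and 23.8 CPM in PMs. Rhob and Ier5 were the members called higher in sorted MG than in MG-LCs with each library left out, by log2 2.60 ± 0.24 (SE; adjusted p = 0.00117) and 1.48 ± 0.23 (SE; adjusted p = 0.00456). Both were lower in sorted PMs than in PM-LCs, with a log2 difference of -2.28 ± 0.34 (SE; adjusted p = 0.00276) and -2.07 ± 0.31 (SE; adjusted p = 0.00304). Ier2 was higher in AMs than in KCs by log2 1.60 ± 0.20 (SE; adjusted p = 7e-05) and lower in sorted KCs than in KC-LCs with a log2 difference of -2.09 ± 0.46 (SE; adjusted p = 0.0116). Ier3 had its highest value in MG-LC replicate 1 (669 CPM, against 67.8 and 184 CPM), the library with 30934 CPM of fibroblast and mesothelium markers, and its part in the result was not tested. Ier3 was lower in sorted MG with a log2 difference of -4.08 ± 0.88 (SE; adjusted p = 0.0126), a call lost without any 1 of the sorted libraries, and the value was -2.78 without MG-LC replicate 1.

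The NF-kB feedback genes divided AMs from KCs. Nfkbia (IkB-alpha), the inhibitor that holds NF-kB in the cytoplasm, stood at 485, 373 and 400.2 CPM in KCs, 320.0, 363 and 269 CPM in PMs, 179, 187 and 207 CPM in AMs and 129, 118 and 148 CPM in MG. Nfkbiz (IkB-zeta), a nuclear coactivator of secondary response genes, stood at 59.7, 70.7 and 82.8 CPM in KCs and 10.6, 8.80 and 9.92 CPM in AMs. AMs were lower than KCs in Nfkbia with a log2 difference of -1.15 ± 0.16 (SE; adjusted p = 0.00015) and in Nfkbiz with a log2 difference of -2.88 ± 0.17 (SE; adjusted p = 1.8e-07), without overlap. Tnfaip3 (A20), a ubiquitin-editing inhibitor of NF-kB signalling, went the other way, with 98.6, 90.5 and 89.8 CPM in AMs and 39.8, 48.4 and 43.8 CPM in KCs (log2 1.07 ± 0.15 SE, adjusted p = 0.000183). Socs3, the feedback inhibitor of STAT3 signalling, was higher in undigested populations, with 101 to 143 CPM in MG and PMs and 11.9 to 48.7 CPM in KCs and AMs (log2 -2.04 ± 0.18 SE, adjusted p = 3.96e-06). Against the cultures, 2 of these 4 genes were lower in sorted MG, 2 in KCs and 1 in PMs (25.2%, 14.4% and 16.8% of all genes). In AMs 1 was higher and 1 lower (22.9% and 25.9% of all genes). Of these 7 calls, those of Nfkbia in MG and Socs3 in KCs were made with each library left out, and the others (Nfkbiz in MG, Tnfaip3 in KCs and PMs, Nfkbia and Socs3 in AMs) were lost in 3 to 5 of 6 fits.

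The heat shock genes differed from each other in their order among the sorted groups. Hspa1a and Hspa1b, the stress-inducible Hsp70 genes, were highest in KCs and lowest in AMs. Hspa1a stood at 235, 144 and 75.0 CPM in KCs, 12.2, 24 and 19.6 CPM in MG, 7.08, 11.2 and 5.91 CPM in PMs and 1.76, 2.71 and 1.84 CPM in AMs. Hspa1b stood at 284, 306 and 142 CPM in KCs, 38.5, 65.2 and 53.9 CPM in MG, 16.4, 35.8 and 9.06 CPM in PMs and 3.74, 4.22 and 3.41 CPM in AMs. For both genes no sorted group overlapped another. AMs were lower than KCs, which had been digested in the same way, with a log2 difference of -6.18 ± 0.50 (SE; adjusted p = 2.28e-06) in Hspa1a and -6.02 ± 0.53 (SE; adjusted p = 4.69e-06) in Hspa1b, or 72.3-fold and 64.9-fold. The digested pair as a whole did not differ from the undigested pair beyond the spread in Hspa1a (log2 0.57, 95% interval -0.07 to 1.2, adjusted p = 0.14) or Hspa1b (log2 -0.09, 95% interval -0.75 to 0.58, adjusted p = 0.868).

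Between 33.7% and 37.7% of the stretches of 50 bases in these genes occur in no other gene's transcripts, and how the counting treated reads that match both copies is not given in the sources used here. The sum over both copies was 519.6, 449.5 and 217 CPM in KCs, 50.7, 89.2 and 73.5 CPM in MG, 23.5, 47 and 15 CPM in PMs and 5.50, 6.93 and 5.25 CPM in AMs, in the same order. In the 12 cultured libraries it was between 1.15 and 16.2 CPM. Sorted KCs were therefore higher than KC-LCs by log2 6.53 ± 0.75 (SE; adjusted p = 0.00122) in Hspa1a and 8.06 ± 0.77 (SE; adjusted p = 0.00059) in Hspa1b, and these calls were made with each library left out. In MG the differences were 2.15 ± 0.56 (SE; adjusted p = 0.0223) and 3.41 ± 1.05 (SE; adjusted p = 0.0389), and both calls were lost without any 1 of the sorted libraries, that of Hspa1b also without MG-LC replicate 2 or 3. Hspa1b was higher in sorted PMs by log2 2.29 ± 0.55 (SE; adjusted p = 0.0203), a call lost without PM replicate 1, PM replicate 2 or PM-LC replicate 1, and DESeq2 called Hspa1a higher there as well (log2 1.37, adjusted p = 0.0208). In AMs the values were 1.38 ± 1.02 (SE; adjusted p = 0.297) and 1.24 ± 0.45 (SE; adjusted p = 0.054) and neither was called by edgeR, while limma-voom (log2 1.35, adjusted p = 0.0259) and DESeq2 (log2 1.22, adjusted p = 0.0337) called Hspa1b higher. By edgeR without AM-LC replicate 3 they were 2.98 and 1.66 with adjusted p of 0.0411 and 0.0191. T and NK cell, B cell and hepatocyte markers summed to 24.1 to 241, 171 to 383 and 126 to 263 CPM in KCs. Endothelial markers summed to 264 to 518 CPM there (7 of 8 with reads, Tie1 at 0), against at most 55.5 CPM in any other group. Neutrophil and monocyte markers summed to 2.99 to 142 and 158 to 380 CPM in KCs. The part of all these markers in the result was not tested.

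**Figure D3:**
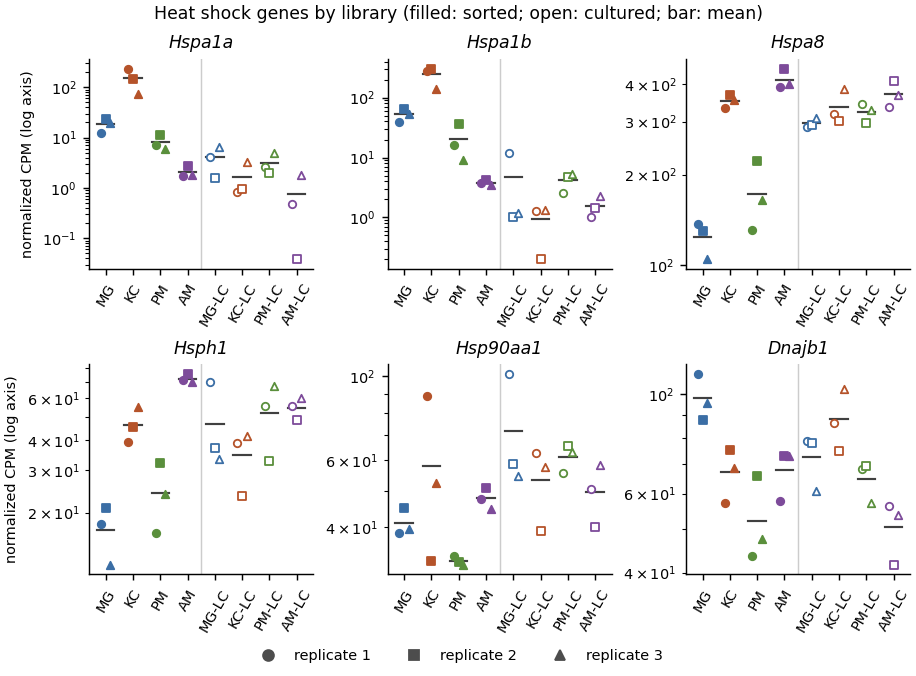
Normalized CPM (log axis) of the 6 heat shock genes in each of the 24 libraries, drawn as for the immediate early genes. Hspa1a and Hspa1b fall in the order KC, MG, PM and AM among sorted cells, while Hspa8 and Hsph1 are high in both KC and AM.

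Another order held for Hspa8 and Hsph1, whose means fell from AMs through KCs and PMs to MG, as did those of Atf3 and Klf6. Hspa8 (Hsc70) stood at 392, 449.5 and 399.6 CPM in AMs, 333, 368 and 354 CPM in KCs, 131, 222 and 165 CPM in PMs and 137, 129.7 and 105 CPM in MG. Hsph1 (Hsp110), a nucleotide exchange factor of Hsp70, stood at 71.4, 75.7 and 69.8 CPM in AMs, 39.3, 45.3 and 55.0 CPM in KCs, 16.5, 32.2 and 23.9 CPM in PMs and 17.9, 20.9 and 12.1 CPM in MG. Both were higher in the digested pair without overlap, by log2 1.4 ± 0.13 (SE; adjusted p = 7.14e-06) and 1.54 ± 0.18 (SE; adjusted p = 4.44e-05). Cultured cells had Hspa8 between 288 and 409 CPM in all 12 libraries, near the level of sorted KCs and AMs, and sorted MG were lower than MG-LCs with a log2 difference of -1.31 ± 0.19 (SE; adjusted p = 0.00372). For Hspa8, 60.6% of the stretches of 50 bases are found in no other gene, and for Hsp90aa1 52.5%. Hsp90aa1 ranged from 31.9 to 50.7 CPM in sorted MG, PMs and AMs and from 32.7 to 88.5 CPM in KCs, and was called lower than in culture in PMs (log2 -0.91 ± 0.17 SE, adjusted p = 0.00709) and in MG (log2 -0.85 ± 0.28 SE, adjusted p = 0.0453), in MG not without any 1 of the sorted libraries.

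The difference between sorted and cultured cells was then compared between AMs and the other populations in a model of all 24 libraries. In 19 members the change ex vivo was more positive in AMs than in the mean of MG, KCs and PMs, and in 1 member it was more negative, where 9.45% and 7.68% of all 17408 genes tested were called in these directions. The former were 6 of 8 AP-1 and bZIP factors, 5 of 10 Egr, Nr4a, Klf and Myc factors, 5 of 9 other immediate early genes, 1 of 4 feedback genes (Tnfaip3) and 2 of 6 heat shock genes (Hspa8 and Hsph1). The median difference of differences over the 37 members was 1.56 on the log2 scale, and -0.03 over all genes. The largest values were those of Dusp5 (log2 6.21, 95% interval 4.24 to 8.19, adjusted p = 0.000123) and Fos (log2 5.73, 95% interval 3.91 to 7.55, adjusted p = 0.000119). Fosb (log2 5.54, 95% interval 2.53 to 8.56, adjusted p = 0.0114), without a read in 2 PM libraries, Nr4a1 (log2 5.40, 95% interval 3.56 to 7.25, adjusted p = 0.000247) and Egr2 (log2 5.38, 95% interval 3.60 to 7.17, adjusted p = 0.000179) followed, with intervals that overlapped those of Dusp5 and Fos. Hspa1b was the member in the other direction (log2 -3.33, 95% interval -5.22 to -1.44, adjusted p = 0.0149), and this call was lost without AM replicate 3 or AM-LC replicate 3. Of the 19 calls, 14 were made with each library left out, and those of Junb, Ier5, Zfp36, Tnfaip3 and Hsph1 were not. Ier5 was lost without AM-LC replicate 3, Zfp36 and Tnfaip3 without AM-LC replicate 2, Junb without either of these or AM replicates 1 or 3, and Hsph1 in 16 of 24 fits.

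The same difference can be read from the sorted and from the cultured side, which were fitted separately and share no libraries. For Egr2, Maff, Klf4 and Dusp5 the difference was larger among sorted cells. Egr2 in AMs was higher by 6.35 on the log2 scale than the mean of the other sorted cells, and its difference between AM-LCs and the other cultures was 0.96 (95% interval -0.32 to 2.24; adjusted p = 0.309). Maff and Dusp5 were higher in AMs by 5.77 and 5.70 among sorted cells, and stood at 1.16 and -0.50 among cultures. Without replicate 3 of MG-, KC- and PM-LCs, an alternative chosen after seeing the data, Egr2 and Maff were called higher in AM-LCs than in the other cultures (log2 1.84 and 1.53, adjusted p = 0.0111 and 0.0121), and Nr4a1 and Dusp1 were no longer called lower. For some members, Fos, Nr4a1, Dusp1 and Tnfaip3 among them, both sides differed in size by over 1 on the log2 scale. Fos was higher by 3.27 among sorted cells and had -2.44 (95% interval -4.17 to -0.72; adjusted p = 0.0637) among cultures. Nr4a1 was higher by 1.95 among sorted cells and had -3.41 ± 0.86 (SE; adjusted p = 0.0269) among cultures. Junb, Zfp36 and Ier5 had smaller values among sorted cells, with log2 differences of 0.18, 0.46 and 0.46, and were at -1.47, -2.28 and -1.09 among cultures.

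**Figure D4:**
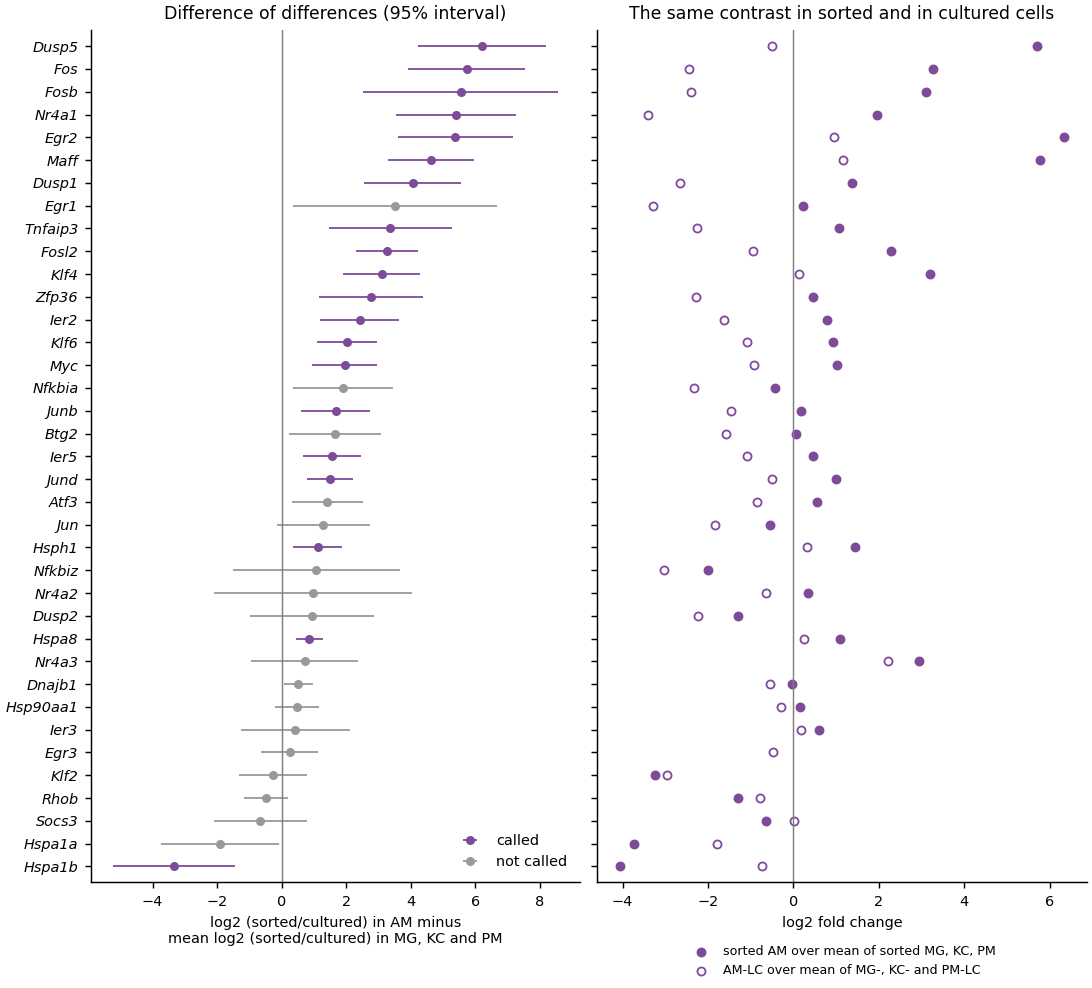
Left, log2 change from cultured to sorted AM minus the mean change in MG, KC and PM for each member, with its 95% interval and called members in purple. Right, the log2 difference of AM from the mean of the other populations among sorted (filled) and cultured (open) cells. Of the called members, 19 lie right of 0 and Hspa1b lies left of it.

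In culture, AM-LCs had the lowest mean of the 4 TRM-LCs in 26 of the 37 members (70.3%, against 30.7% of all 17408 genes). In the test, 3 members were lower in AM-LCs than in the mean of MG-, KC- and PM-LCs (Klf2, Nr4a1 and Dusp1) and none was higher, where 8.38% and 4.71% of all 14813 genes tested were called higher and lower. At an unadjusted p under 0.05, 16 members were lower and 2 higher, against 12.5% and 15.9% of all genes. DESeq2 called 17 lower and 1 higher, against 9.54% and 11.6% of all genes, and limma-voom 6 lower and 1 higher, against 3.56% and 9.36%. AM-LC replicate 2 had the lowest library of all cultures in several members, such as 80.6 CPM of Fos, 0.649 CPM of Nr4a1 and 68.4 CPM of Zfp36. The call of Klf2 was made with each library left out, that of Nr4a1 was lost without AM-LC replicate 1, and that of Dusp1 was lost without any 1 of the AM-LC libraries or KC-LC replicate 2.

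The cultured libraries of 1 group differed widely in these genes. In KC-LCs, the third library was the highest of the 3 for 81.1% of the members and for 30.5% of all genes. In PM-LCs it was the highest for 83.8% of the members and 36.5% of all genes, and in MG-LCs for 51.4% and 31.4%, a share that replicate 1 of MG (54.1%) and AM-LCs (56.8%) and replicate 3 of AMs (56.8%) also passed. The third library exceeded the mean of the other libraries 8.77-fold in PM-LCs, 4.93-fold in KC-LCs and 2.18-fold in MG-LCs at the median of the 4 feedback genes (1.18-fold in MG-LCs over all members), while the median of this ratio over all genes was between 0.958 and 0.969. Nfkbiz stood at 20.9, 31.1 and 589 CPM in PM-LCs, 20.3, 36.5 and 373 CPM in KC-LCs and 131, 33.5 and 222 CPM in MG-LCs. Egr1 stood at 34.5, 66.6 and 2206 CPM in PM-LCs and 99.9, 125 and 1689 CPM in KC-LCs. For the heat shock genes these medians were 1.26 in PM-LCs, 1.30 in KC-LCs and 0.730 in MG-LCs. In the sorted groups, the third library was over 2-fold above the mean of the others for 1 member in PMs, 2 in AMs and 0 in MG and KCs. These were 2.94%, 5.56%, 0% and 0% of members with reads in all 3 libraries, against 5.19%, 3.90%, 5.19% and 5.41% of all genes. In KC-, PM-, MG- and AM-LCs the shares of members were 55.6%, 55.6%, 29.7% and 13.9%, against 6.34%, 10.8%, 10.9% and 8.85% of all genes.

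**Figure D5:**
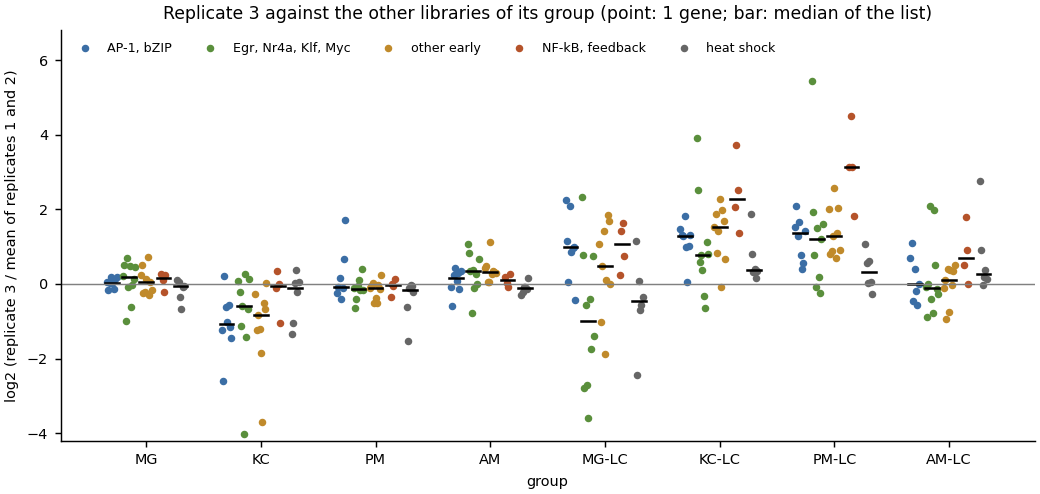
Log2 ratio of replicate 3 to the mean of replicates 1 and 2 of its group, for each member with reads in all 3 libraries (points, coloured by list) and the median of each list (bars). The NF-kB and cytokine feedback genes reach the highest medians in KC-LC and PM-LC, and all sorted groups but KC stay near 0.

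Some comparisons with culture rest on replicate 3. Without KC-LC replicate 3, Nfkbiz turned from a log2 difference of -0.98 to 1.34 in KCs (adjusted p = 0.0432). Without PM-LC replicate 3, Nfkbia turned from -0.73 to 1.16 (adjusted p = 0.00518) and Ier2 from -0.33 to 0.73 (adjusted p = 0.0123) in PMs, and 8 members in place of 2 were higher in sorted PMs, where 18.5% of all genes in place of 12.1% were called higher. With all 3 of these libraries left out at once, that of MG-LCs included, 19 members had a more positive change in AMs than in the other populations and 2 a more negative one (Hspa1a and Hspa1b), against 9.71% and 8.26% of all genes, with Nfkbia gained and Junb lost. The median of the 4 feedback genes was 0.0009 in place of 1.49 on the log2 scale. Whether these libraries share a day of culture or sequencing is not given in the sources used here.

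Further genes of these pathways were counted from lists of known members. Log2 values in parentheses are differences of differences, AMs against the other populations. Of 45 further early response genes tested, 13 were higher and 11 lower in sorted AMs than in AM-LCs (22.9% and 25.9% of all genes). In 17 of 47 the change was more positive in AMs than in the other populations and in 4 more negative (9.45% and 7.68% of all genes). Hbegf, a ligand of the EGF receptor, had a mean of 0.0783 CPM in sorted AMs, 38.9 CPM in KCs and 23.4 CPM in AM-LCs, and its change was more negative in AMs with a log2 difference of -8.40 ± 1.29 (SE; adjusted p = 0.000134). Gadd45b, a stress sensor, averaged 16.0 CPM ex vivo and 18.6 CPM in vitro for AMs, but 1.92 and 96.2 CPM for MG (log2 4.27 ± 0.87 SE, adjusted p = 0.00188). Ccn1, a matrix protein induced by serum, had 1 count in all sorted AM libraries and a mean of 49.3 CPM in AM-LCs. Fibroblast and mesothelium markers summed to 0.0746 to 0.657 CPM in AMs (3 of 8 with reads, with Col1a2, Dcn, Lum, Msln and Upk3b at 0) and to 17, 181 and 1667 CPM in AM-LCs (8 of 8), and their part in the results on Ccn1 and on Cryab, given last, was not tested.

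Of 16 NF-kB target cytokines and chemokines, 4 were higher and 6 lower in sorted AMs (22.9% and 25.9% of all genes), and 12 were lower in sorted MG, 8 in KCs and 12 in PMs (25.2%, 14.4% and 16.8% of all genes). In the digested pair 12 of 16 were higher than in the undigested pair and 1 was lower (23.0% and 18.5% of all genes). Cxcl2, a neutrophil attractant, had means of 65.7 CPM in AMs, 46.1 CPM in PMs and 0.0344 CPM in MG, against 50.7 CPM in AM-LCs and 190 to 902 CPM in the other cultures (log2 7.74 ± 1.66 SE, adjusted p = 0.00285). Il1b had 166 CPM in KCs, 86.4 CPM in AMs, 2.32 CPM in MG and 0.537 CPM in PMs (log2 6.51 ± 1.29 SE, adjusted p = 0.0015). In culture it had 69.8 CPM in KC-LCs, 6.67 CPM in AM-LCs, 88.6 CPM in MG-LCs and 11.9 CPM in PM-LCs, so its mean was higher ex vivo in KCs as well as in AMs. Ptgs2, the inducible cyclooxygenase, had no count in sorted AMs and a mean of 30.5 CPM in AM-LCs. By these means it was at least 1146-fold lower in sorted AMs (floor of 3 counts over the group, for counting error only). The log2 difference between sorted AMs and AM-LCs was -13.04 ± 2.63 (SE; adjusted p = 0.0116). The part of fibroblast and mesothelium markers in this result was not tested. Of 27 NF-kB subunits, kinases and regulators, 11 were higher and 4 lower in sorted AMs than in AM-LCs, against the same shares of all genes. Tnfaip2, a TNF-induced gene, had 1268 CPM in AMs, 740 CPM in KCs, 184 CPM in PMs and 36.8 CPM in MG (log2 3.12 ± 0.35 SE, adjusted p = 5.15e-06). Its means in culture were 486 CPM in AM-LCs, 558 CPM in KC-LCs, 694 CPM in PM-LCs and 482 CPM in MG-LCs.

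Of 38 further heat shock factors and chaperones tested, 4 were higher and 17 lower in sorted AMs than in AM-LCs (22.9% and 25.9% of all genes), and in MG 1 of 39 was higher and 24 lower (21.2% and 25.2%). Among sorted cells, 24 of 39 were higher in AMs than in the mean of the others and 3 lower (24.7% and 21.9% of all genes). Fkbp4, a cochaperone of Hsp90, had 202 CPM in AMs against 87.7 to 136 CPM in the other sorted groups, and its change was more positive in AMs by log2 1.31 ± 0.24 (SE; adjusted p = 0.000676). Ahsa1, the activator of the Hsp90 ATPase, had 92.3 CPM in AMs and 84.9 CPM in AM-LCs, against 49.5 to 77.9 and 125 to 296 CPM in the other sorted and cultured groups (log2 1.86 ± 0.38 SE, adjusted p = 0.00204). Cryab, a small heat shock protein, was lower in sorted AMs than in AM-LCs with a log2 difference of -5.40 ± 1.53 (SE; adjusted p = 0.0229). Of the 7 SOCS genes, 0 were higher and 2 lower in sorted AMs than in AM-LCs (22.9% and 25.9% of all genes). The lower ones were Socs1 and Socs6, with a log2 difference of -2.87 ± 0.41 (SE; adjusted p = 0.00147) and -2.34 ± 0.24 (SE; adjusted p = 0.00041).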

How the data were processed

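The authors used SMARTer cDNA synthesis and Nextera XT tagmentation, which do not mark strand, trimmed single reads with Trimmomatic and counted them per gene with STAR on mm10. They deposited raw counts without normalization. The labels also name a human genome build, but all identifiers are of mouse genes. Identifiers were matched to GENCODE symbols of GRCm38, and 563 had none. Promoters are from RefSeq. Members and gene lists were chosen with earlier results of these data known.

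Analyses used R 4.3.3. CPM were normalized by TMM over all 24 libraries. Counts were tested with edgeR 4.0.16 (glmQLFTest, two-sided, filterByExpr with a minimum count of 10), on 6 libraries for each sorted-versus-cultured comparison, on 12 among sorted or cultured cells and on 24 for the difference of differences, with Benjamini-Hochberg adjustment over all genes tested. Beside all members, the 2 called genes with the largest change and an average log2 CPM above 3 were taken from each further list in the AM comparison and in the difference of differences, and some are described. Scripts were tested on simulated data. Alternatives were limma-voom 3.58.1, DESeq2 1.42.0, RLE size factors, other filters, a fold-change threshold, 1 model of 24 libraries, the replicate number as a block and leaving out each library. The qPCR, cytometry and functional assays were not analysed here.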

Additional observations from a re-analysis of the deposited data

Results flagged for a closer look

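For 20 members the difference between sorted and cultured cells itself differed between AMs and the mean of MG, KCs and PMs (interaction in a model of all 24 libraries, edgeR's quasi-likelihood test, adjusted p under 0.05). The log2 values, positive where the change from culture to sorted cells was higher in AMs, were 5.73 for Fos, 5.54 for Fosb, 3.26 for Fosl2, 1.67 for Junb, 1.49 for Jund and 4.62 for Maff among the AP-1 and bZIP factors. They were 5.38 for Egr2, 5.40 for Nr4a1, 3.10 for Klf4, 2.03 for Klf6 and 1.95 for Myc. Among the other immediate early genes they were 2.41 for Ier2, 1.56 for Ier5, 4.06 for Dusp1, 6.21 for Dusp5 and 2.76 for Zfp36. Tnfaip3 had 3.36, Hspa8 0.85 and Hsph1 1.12, and Hspa1b was the member with a negative value, -3.33. AM-LCs differed from the other cultures in growth factor, glucose and oxygen, which cannot be told apart from the tissue here.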

How the results depend on the processing

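The direction of each member's difference was the same under limma-voom, DESeq2, RLE size factors, both other filters, the replicate block and, for the comparisons within a population, 1 model of 24 libraries wherever it was called in either fit. With 1 library left out, 4 values changed sign and passed the threshold: Nfkbiz in KCs (1.34 without KC-LC replicate 3, range over the libraries from -1.53), Ier2 and Nfkbia in PMs (0.73 and 1.16 without PM-LC replicate 3, ranges from -0.66 and -1.20) and Nr4a2 between sorted AMs and KCs (3.34 without KC replicate 1, range from -1.69), and the cause was not tested. RLE size factors and DESeq2 moved the median of all genes past 0.1 in size, to between -0.11 and -0.13, for sorted AMs against the others, sorted AMs against KCs and the difference of differences. Counts of members moved by over 1.5 times as follows. Requiring an absolute log2 difference above 1.5 as well left 5 higher and 2 lower in AMs, 9 and 4 in sorted AMs against the others, 8 higher against KCs, and 9 and 1 in the digested against the undigested pair. With 24 libraries in 1 model, 8 were higher and 1 lower in AMs (12.7% and 16.1% of all genes). DESeq2 gave 4 higher in PMs (16.8% of all genes). For AM-LCs against the other cultures, DESeq2 gave 1 higher and 17 lower (11.6% and 9.54% of all genes), and limma-voom 1 and 6 (9.36% and 3.56%). The counts there were 1 and 7 with the replicate block. They were 2 and 1 without replicate 3 of the other cultures, chosen after seeing the data (5.08% and 1.76% of all genes). That alternative gave 2 lower in the difference of differences (8.26% of all genes). Leaving out 1 library gave 2 to 7 higher and 10 to 22 lower in MG, 7 to 16 lower in KCs, 1 to 8 higher in PMs, 1 to 7 lower in AMs, 0 to 2 lower in the difference of differences, and 0 to 1 higher and 1 to 6 lower in AM-LCs. The replicate block changed no other count by over 1.5 times. Shares of all genes are not given here for the fold-change threshold, the replicate block and the ranges with 1 library left out. In these, a general change in calls cannot be told from a change in the members. Libraries with the same number did not deviate together over all pairs of groups (84 correlations from -0.38 to 0.29, in 0 of 28 pairs of groups all above 0.1, and 36 of 84 highest with the own number), so the numbers were not taken as pairs. Replicate 3 of MG-, KC- and PM-LCs did correlate with each other (0.208, 0.288 and 0.230). So did replicate 1 of PM- and AM-LCs (0.276) and replicate 2 of MG- and AM-LCs (0.182). Genes at a few counts (Egr3, Nr4a3, Fosb in PMs) are limited by depth.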
